A study of Saccharina japonica with 2 samples.

Results

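The cryptochrome and photolyase unigenes of Saccharina japonica, a kelp, were compared between 1 library from darkness and 1 library from blue light (BL). The group holds 10 of the 70288 unigenes with a uniquely aligned read. They are the 7 unigenes that the study listed as cryptochrome homologues and the 3 that it listed as photolyases under photoreactivation, so that membership rests on the name of the best BLAST subject and not on reads. Vegetative tissue of sporophytes was cultured without light for 4 h and spent the next 2 h in sterilized seawater, either in darkness or under BL. The methods of the study name no mutant, strain or chemical treatment, and both groups shared the dark period. Each library came from a pool of 10 individuals, and the labels call the material mature thalli whereas the methods of the study call it juvenile sporophytes. With 1 pooled library per treatment the spread between kelps cannot be measured, so each test given here compares the reads of 1 library with those of the other and not the treatments. Intervals cover counting error only, and since read pairs and PCR copies are not independent molecules they are too narrow.

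Cryptochromes and photolyases are flavoproteins of 1 family. Photolyases take up blue or near-ultraviolet light and use its energy to split the pyrimidine dimers that ultraviolet light leaves in DNA, a repair known as photoreactivation. Cryptochromes share this fold and the flavin cofactor, and in plants and animals most of them act as light receptors or clock components. The DASH cryptochromes stand between both kinds, because those studied in bacteria and Arabidopsis can repair dimers in single-stranded DNA.

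The annotation divides the 10 unigenes into 4 groups. Unigene16798, Unigene67190, Unigene12649 and Unigene68251 were matched to cryptochrome DASH proteins, the first of an archaeon (Natronomonas pharaonis), the next of Arabidopsis and the last pair of the cyanobacterium Gloeobacter violaceus. Unigene22061, Unigene43965 and Unigene46375 shared 1 subject, a cryptochrome photoreceptor of Chlamydomonas. Unigene11093 and Unigene7340 were matched to the DNA photolyase of a marsupial, the potoroo Potorous tridactylus, and Unigene19885 to photolyase 1 of the brown alga Ectocarpus siliculosus. Unigenes with 1 subject may be pieces of 1 transcript or of related genes, and the sequences that would tell were not used here. Of the 111 unigenes in the study's lists of BL receptors and response genes that had a read, 109 had the length given there. The exceptions were Unigene22061 and Unigene16063, listed as a cryptochrome and a phototropin, whose lengths were exchanged between the list and the deposited files. It is therefore not certain which of this pair carries the cryptochrome match, and values for both are given.

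The dark library held 10905306 uniquely aligned reads and the BL library 11410538. The median read number of a listed unigene was 22 in the former and 29 in the latter. All 10 members had reads in both libraries, 1097 in darkness and 1716 in BL, and no filter on low counts was applied. The median was 53.5 reads per member over both libraries, and Unigene22061, Unigene19885 and Unigene11093 took 80.7% of all reads of the 10. Levels are given as RPKM, in which the reads are divided by the length of the unigene and by the total of uniquely aligned reads in the library, and ratios as log2 of BL over dark RPKM with the exact Clopper-Pearson 95% interval. Over the unigenes with reads in both libraries the median log2 ratio was 0.42, and TMM or median-of-ratios scaling would lower every log2 ratio by 0.29 or 0.42. For the labelled tissue, reads from both libraries fell on 2 of 2 unigenes annotated as light harvesting complex proteins of photosynthetic tissue and on 6 of 6 annotated as mannuronan C-5-epimerase, an enzyme of alginate synthesis, in the part of the annotation at hand. The same holds for 61001 of all 70288 unigenes, which were assembled from these libraries, so these counts do not test the tissue.

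Of the 10 members, 7 had a higher RPKM in BL and 3 a lower one. A unigene was called if its 2-sided Audic-Claverie P was no higher than 0.05, its FDR over all 70288 unigenes no higher than 0.001, and its log2 ratio 1 or more in either direction. By this rule 5 of the 10 were upregulated, namely 4 of 7 cryptochromes and 1 of 3 photolyases, and 0 were downregulated. Of all unigenes 25.0% were called up and 11.6% down. Among the 23957 unigenes within the GC range of the members, 55.5% to 66.79%, these shares were 44.7% and 2.55%. The 5 of 10 lay near the share of called unigenes of like GC content, so the count of upregulated members is not a result about this family.

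The cryptochrome DASH unigenes did not move as a unit. Unigene16798 (1190 bp, 61.01% GC) had 57 dark and 215 BL reads, which is 4.39 RPKM in darkness and 15.8 RPKM in BL. Its log2 ratio of 1.85 (interval 1.42 to 2.30) was the only one of the 4 to be called, with an FDR of 2.63e-20 in the Audic-Claverie test. Unigene68251 (434 bp, 62.44% GC) had 7 dark and 27 BL reads, or 1.48 and 5.45 RPKM. Its log2 ratio of 1.88 (interval 0.65 to 3.33) was as large as that of Unigene16798, but with so few reads its FDR of 0.00266 missed the threshold. The other unigene with the Gloeobacter subject, Unigene12649 (345 bp, 64.93% GC), was read 24 times in darkness and 35 times in BL, at 6.38 and 8.89 RPKM. The interval of its log2 ratio of 0.48 ran from -0.31 to 1.29 and included 0.

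Unigene67190 (381 bp, 63.52% GC), the homologue of the Arabidopsis protein that acts in chloroplasts and mitochondria, was the 1 cryptochrome with fewer reads in BL. It had 31 dark and 13 BL reads and went from 7.46 RPKM in darkness to 2.99 RPKM in BL. The log2 ratio was -1.32 (interval -2.38 to -0.34). The FDR of 0.00773 in the Audic-Claverie test was above the threshold with total reads, and with TMM or median-of-ratios scaling the unigene was called down (FDR 0.000938 and 0.000307). Summed over the 4 DASH unigenes the reads numbered 119 in darkness and 290 in BL, and their log2 ratio was 1.22 (interval 0.91 to 1.54). Unigene16798 held 66.5% of these reads, and without it the sum went from 62 to 75 reads and the log2 ratio to 0.21 (interval -0.30 to 0.72).

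All 3 unigenes with the Chlamydomonas cryptochrome as subject were upregulated by the rule. Unigene22061 (2107 bp, 59.94% GC) was the most-read member, with 422 dark and 966 BL reads. Its level went from 18.4 to 40.2 RPKM, a log2 ratio of 1.13 (interval 0.96 to 1.30), which lay close to the fold threshold. With TMM or median-of-ratios scaling the log2 ratio was 0.84 or 0.71, and the unigene was no longer called. Unigene43965 (441 bp, 64.17% GC) had 9 dark and 39 BL reads, or 1.87 and 7.75 RPKM, with a log2 ratio of 2.05 (interval 0.98 to 3.28). Its FDR in the Audic-Claverie test was 8.11e-05, and 0.00102 with TMM factors, just above the threshold.

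Unigene46375 (548 bp, 66.79% GC) had the largest ratio and the lowest dark level of the 10. Its 3 dark and 37 BL reads correspond to 0.502 and 5.92 RPKM, an 11.8-fold difference with an interval from 3.73 to 59.8, and the call was kept with TMM and median-of-ratios scaling. It was lost at a coefficient of variation set to 0.4 in edgeR's exact test (FDR 0.0296) and with the GC trend removed (FDR 0.0874). Unigene22061 held 94.0% of the reads of the 3, so that their summed log2 ratio of 1.20 (interval 1.04 to 1.36) is nearly its own. For the remaining pair, with 12 dark and 76 BL reads in sum, the log2 ratio was 2.60 (interval 1.71 to 3.61).

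Unigene16063, which has the length that the study listed for Unigene22061, behaved differently. It measured 3549 bp at 52.55% GC and had 4725 dark and 5121 BL reads, 122 and 126 RPKM. Its log2 ratio of 0.05 (interval -0.01 to 0.11) was not called. If Unigene16063 carries the cryptochrome match, 3 of 7 cryptochromes were upregulated instead of 4, and the summed log2 ratio of the 7 falls from 1.20 to 0.11 (interval 0.05 to 0.17).

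The photolyases went in opposite directions. Unigene19885 (1131 bp, 60.04% GC), the homologue of Ectocarpus photolyase 1, had 293 dark and 173 BL reads, 23.8 RPKM in darkness and 13.4 RPKM in BL. The log2 ratio was -0.83 (interval -1.11 to -0.55), which means 1.77-fold fewer reads in BL relative to depth. The FDR was 5.53e-09 in the Audic-Claverie test, and only the fold threshold kept it from being called down. With TMM or median-of-ratios scaling the log2 ratio was -1.11 or -1.25 and it was called down.

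Unigene11093 (1317 bp, 55.50% GC), the longer homologue of potoroo photolyase, had 241 dark and 174 BL reads. Its level was 16.8 RPKM in darkness and 11.6 RPKM in BL, a log2 ratio of -0.54 (interval -0.82 to -0.25) with an FDR of 0.000418 in the Audic-Claverie test. It did not reach the fold threshold with total reads, TMM factors or median-of-ratios factors.

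Unigene7340 (329 bp, 62.92% GC), with the same potoroo subject, was the only photolyase called up. It had 10 dark and 37 BL reads, or 2.79 and 9.86 RPKM. The log2 ratio was 1.82 (interval 0.79 to 3.0), 3.54-fold, with an FDR of 0.000433 in the Audic-Claverie test. With TMM or median-of-ratios scaling its FDR was 0.00413 or 0.01 and the call was lost. The study also followed this unigene by quantitative PCR and reported it as upregulated after BL, which was not examined here. Its primer list holds 1 pair for a photolyase unigene, without a number. The pair is shown because it marks the transcript followed there, and it could not be matched to the unigene here. Each has 20 bases, of which 55% are G or C. Capitals mark the 5 bases at the 3′ end, from which the polymerase extends.
photolyase-F: gtagccgttgtgacgGACAT
photolyase-R: ggctcagctcgggaaTAGTT

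**Figure D1:**
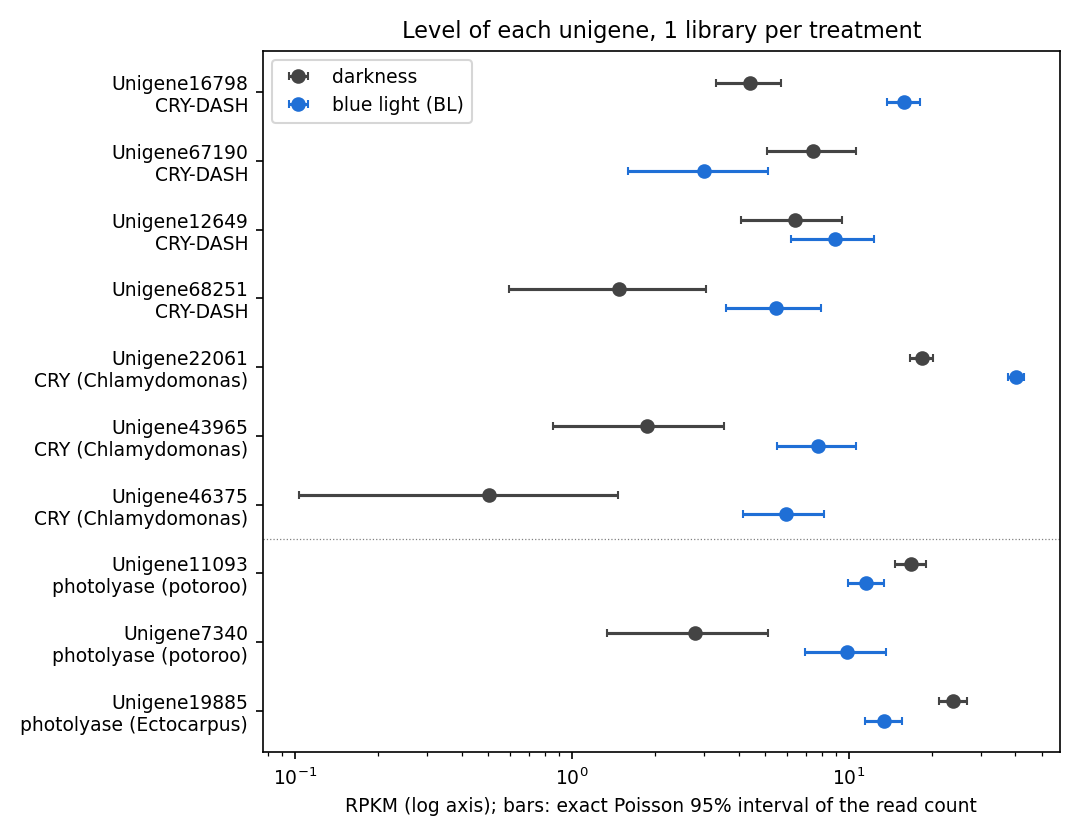
RPKM of each of the 10 unigenes in darkness (grey) and in BL (blue) on a log axis, 1 library each, with the exact Poisson 95% interval of the read count as bars and the photolyases under the dotted line. Unigene19885, Unigene11093 and Unigene67190 lie further right in darkness, the other 7 in BL, and the bars of both libraries overlap for Unigene12649 and, narrowly, for Unigene67190.

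The order of the levels per length differed between the libraries. In darkness Unigene19885 was highest at 23.8 RPKM, followed by Unigene22061 at 18.4 and Unigene11093 at 16.8 RPKM, and the intervals of the latter pair overlapped. A gap separated these from Unigene67190 at 7.46 RPKM, and from there down to Unigene46375 at 0.502 RPKM each neighbour overlapped the next. In BL Unigene22061 stood alone at 40.2 RPKM. Below it, from Unigene16798 at 15.8 RPKM to Unigene67190 at 2.99 RPKM, each pair of neighbours had overlapping intervals. Among all unigenes with a read in the library, Unigene19885 lay at percentile 81.3 of RPKM in darkness and 71.9 in BL. Unigene22061 went from percentile 77.5 to 89.7, Unigene46375 from 6.38 to 45.5 and Unigene67190 from 59.9 to 20.1.

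Because both families were read from the same libraries, their ratio to each other does not depend on the scaling factor of a library. Photolyases took 544 of the 1097 dark reads of the 10 members, or 49.6% (Clopper-Pearson interval 46.6 to 52.6), and 384 of the 1716 BL reads, or 22.4% (interval 20.4 to 24.4). The 7 cryptochromes together had 553 dark and 1332 BL reads, 2.30-fold more in BL relative to depth (interval 2.08 to 2.55), whereas the 3 photolyases had 1.48-fold fewer (interval 1.30 to 1.69). The BL to dark ratio of the cryptochromes was 3.41 times that of the photolyases, with an exact conditional interval from 2.89 to 4.03. Without Unigene22061 it was 3.95 times (interval 3.10 to 5.07), and with Unigene16063 in its place 1.60 times (interval 1.39 to 1.84). With that replacement the photolyases took 10.1% of the dark reads (interval 9.28 to 10.9) and 6.54% of the BL reads (interval 5.92 to 7.2). With the GC trend described further on removed, the summed log2 ratios were -0.49 for the cryptochromes and -1.44 for the photolyases. The photolyase sum is that of Unigene19885 and Unigene11093 in the main, and Unigene7340 contributed 10 dark and 37 BL reads to it.

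The same comparison was made for all 45 pairs of members, with unadjusted 95% intervals. The interval excluded equal ratios in 26 pairs, in 13 of the 21 pairs of a cryptochrome with a photolyase, in 11 of 19 pairs within a family with different subjects and in 2 of 5 pairs that share a subject. Unigene19885, Unigene11093 and Unigene67190 differed from 7 of the other 9 members each. The BL to dark ratio of Unigene7340 was 5.11 times that of Unigene11093 (interval 2.41 to 11.8) although both were matched to potoroo photolyase. Between Unigene19885 and Unigene11093 the difference was 0.29 on the log2 scale (interval -0.11 to 0.69), so that no difference between these photolyases was detectable in ratios not set against GC content. Less the GC trend described further on, Unigene19885 was at -2.48 (interval -2.76 to -2.21) and Unigene11093 at -0.81 (interval -1.10 to -0.52). Both intervals take the trend as exact and leave out the spread of unigenes of like GC content. The ratio of Unigene46375 was 5.38 times that of Unigene22061 (interval 1.69 to 27.4), and the Gloeobacter pair, Unigene68251 and Unigene12649, differed by 1.39 on the log2 scale with an interval from -0.12 to 3.05.

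**Figure D2:**
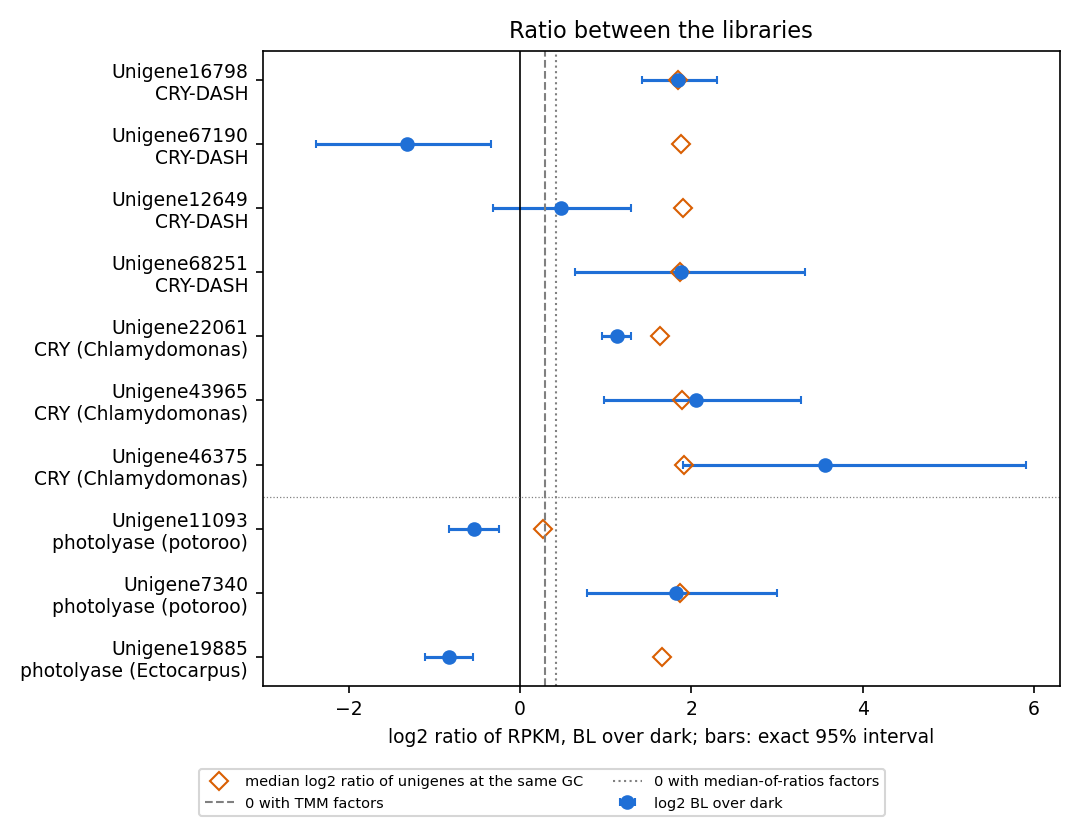
Log2 ratio of RPKM, BL over dark, of each unigene (blue, bars are exact 95% intervals), with the median log2 ratio of unigenes of the same GC content (orange) and the place of 0 under TMM (dashed) and median-of-ratios scaling (dotted). Unigene19885, Unigene11093 and Unigene67190 lie left of 0 under each scaling, and 5 intervals lie wholly left of their orange mark, those of Unigene67190, Unigene12649, Unigene22061, Unigene11093 and Unigene19885. The bars hold counting error only, and the orange marks do not show the spread of unigenes at the same GC content.

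Read coverage, the percentage of a unigene's length touched by reads of a library, was higher in BL for 7 of the 10 members, the same 7 that had more RPKM in BL. The median over all listed unigenes was 90.9% in darkness and 94.8% in BL. Coverage changed most for Unigene46375, whose 3 dark reads touched 49.27% of its length, or 270 bp, against 97.26% for the 37 BL reads. Unigene68251 followed, with 69.82% under 7 dark reads and 99.77% under 27 BL reads. The long members were nearly complete in both libraries, with 98.43% and 99.34% for Unigene22061, 98.79% and 97.42% for Unigene11093 and 98.32% and 94.96% for Unigene19885.

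Unigene67190 was the exception among members with more than 10 reads in each library. Its 31 dark reads touched 73.75% of the 381 bp and its 13 BL reads 65.09%, so that 100 bp in darkness and 133 bp in BL had no uniquely aligned read. Unigene12649, of similar length and with 24 dark reads, was covered to 96.81% in darkness. Unigene43965 held 7 unknown bases, 1.59% of its length, and reached 87.98% and 91.84%. The other 9 members held no unknown base.

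**Figure D3:**
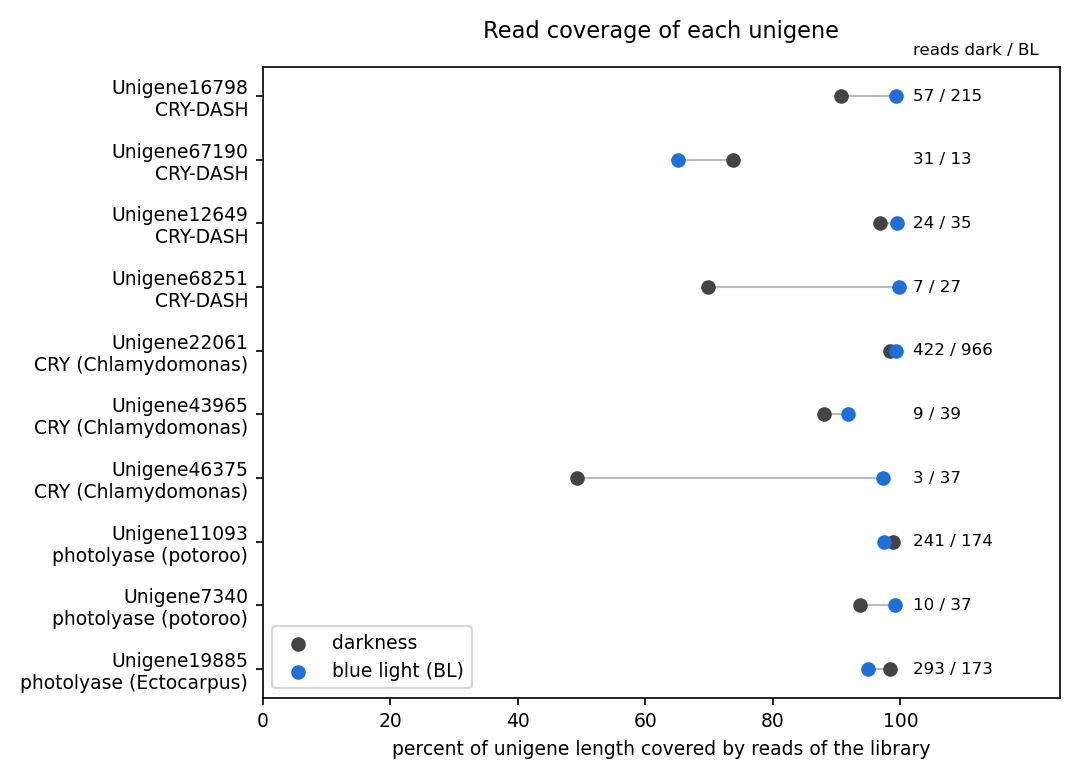
Share of the length of each unigene that reads touched, in percent, in darkness (grey) and in BL (blue), with the read counts of both libraries at the right. Unigene46375 goes from 49.27% to 97.26%, and Unigene67190 stays under 75% in both libraries.

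A feature that the members share and that the annotation names do not use is a high GC content. It ran from 55.5% to 66.79% with a median of 62.7%, against a median of 52.3% over all unigenes, and even the lowest, that of Unigene11093, was at percentile 63.3. This holds with Unigene22061 as the member. If Unigene16063 carries the cryptochrome match, it does not share the feature, and the GC range begins at its 52.55%. The shares of 44.7% called up and 2.55% down were not computed for that wider range. The log2 ratio moved with GC content over the 34252 unigenes that had 50 or more reads in sum and were read in both libraries. Its median was -1.07 in the lowest of 20 equal classes of GC and 1.91 in the highest, and it was 1.47 within the GC range of the members. The part of GC content in the members' ratios was not tested, and the values of both are given side by side.

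At their GC content, the median log2 ratio of unigenes was 1.85 for Unigene16798, 1.86 for Unigene68251, 1.89 for Unigene43965 and 1.86 for Unigene7340. The members' own values of 1.85, 1.88, 2.05 and 1.82 lay within 0.16 of these medians. Unigene46375 was 1.64 above the median at its GC content (interval -0.01 to 3.99). The others lay below it, Unigene22061 by a log2 difference of -0.51 (interval -0.68 to -0.34) and Unigene12649 by -1.43 (interval -2.22 to -0.61). The differences were larger for Unigene19885, at -2.48 (interval -2.76 to -2.21), and Unigene67190, at -3.20 (interval -4.25 to -2.22), and for Unigene11093 the value was -0.81 (interval -1.10 to -0.52). With the GC trend removed before the Audic-Claverie test, 0 members were called up, and Unigene67190 (FDR 6.88e-12), Unigene12649 (FDR 0.000787) and Unigene19885 (FDR 1.25e-72) were called down. These FDRs and intervals take the median as exact and hold counting error only, not the spread of unigenes of like GC content. They do not show how far a member departs from that spread. In the GC class of Unigene22061 and Unigene19885 the log2 quartiles were 0.57 and 2.69. Unigene22061, at 1.13, lay between them and Unigene19885, at -0.83, below. Unigene67190 and Unigene12649 were also below the lower quartile of their classes, and Unigene11093 at -0.54 just below its -0.48.

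**Figure D4:**
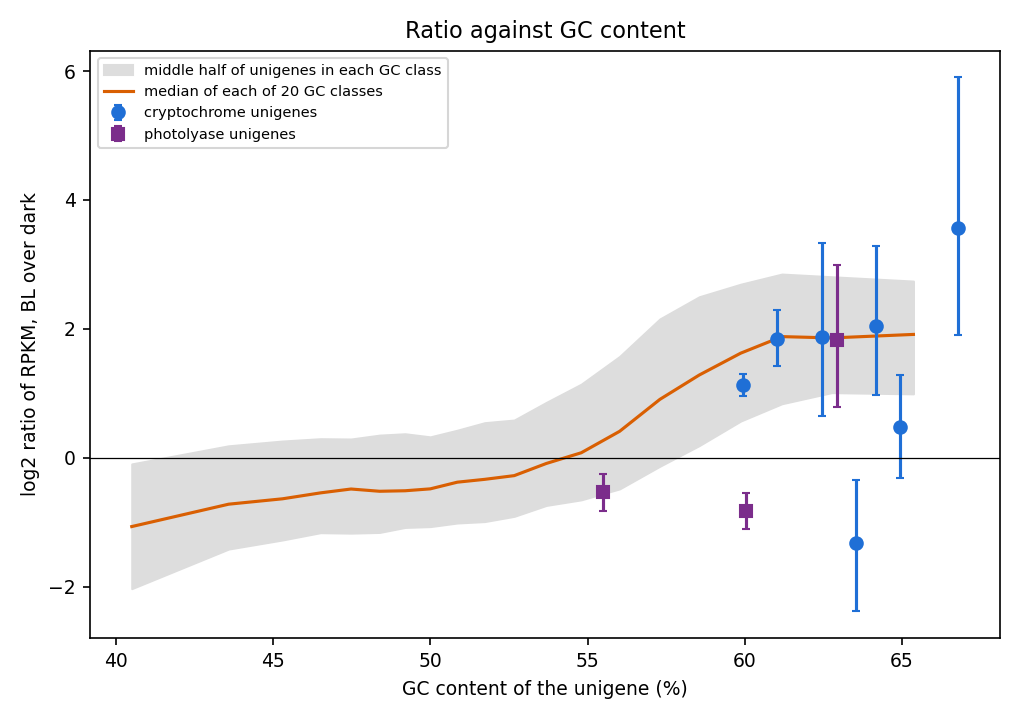
Log2 ratio of RPKM, BL over dark, against the GC content of the unigene, with the median (line) and the middle 50% of unigenes (band) in 20 GC classes, and the cryptochromes (circles) and photolyases (squares) with exact 95% intervals. The line rises from -1.07 to 1.91, and Unigene19885 at 60.04% GC and Unigene67190 at 63.52% GC lie under the band, as does Unigene12649 at 64.93%.

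The other unigenes that the study listed under photoreactivation are named as DNA damage-binding proteins, DDB1- and CUL4-associated factors and DET1. DNA damage-binding proteins help to recognise damaged DNA, and DDB1 is an adaptor of the CUL4 ubiquitin ligase, for which DDB1- and CUL4-associated factors are substrate receptors. Of these 13 unigenes 7 were upregulated and 1 was downregulated, beside 25.0% and 11.6% of all unigenes and 44.7% and 2.55% of those in the GC range of the members. The 44.7% is not a share at the GC content of these 13, whose median was 57.4% (range 52.6% to 68.6%) against 62.7% for the members. No share at their own GC content was computed, so the count is not read as a result about this list. The median log2 ratio was 1.52, against 0.67 over all unigenes with a library that lacks a unigene set to a limit of 3 reads. Among those read 10 or more times in darkness and in BL the highest ratio was that of the DET1 homologue Unigene48767 at 2.84 (14 dark and 105 BL reads, interval 2.03 to 3.76). The lowest was that of the DDB1- and CUL4-associated factor Unigene34020 at -1.28 (65 and 28 reads, interval -1.97 to -0.62). The subject of Unigene48767 is a yeast protein also named DET1, a putative phosphoglycerate mutase, and not the de-etiolated 1 of plants. The list median less the GC trend was 0.11, compared with -0.81 for the 3 photolyases and 0.32 over all unigenes.

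In the list of other BL receptors, 23 of 36 were upregulated and 0 downregulated. The shares called up and down were 25.0% and 11.6% over all unigenes, and 44.7% and 2.55% in the GC range of the members. The 44.7% is not a share at the GC content of these 36, whose median was 59.15% (range 52.55% to 68.47%). As no share at their own GC content was computed, the count is not read as a result about this list. Phototropins and aureochromes sense BL through LOV domains. Among those read 10 or more times in both libraries, the highest and lowest log2 ratios were those of 2 phototropins, 4.47 for Unigene70482 (34 and 787 reads, interval 3.97 to 5.01) and -0.79 for Unigene7649 (33 and 20 reads, interval -1.67 to 0.06). The median log2 ratio was 1.85 for 26 phototropins, 1.98 for 9 aureochromes and 1.85 for the 7 cryptochromes. Their GC content differed, with a median of 59.2%, 59.3% and 63.5%. The medians less the GC trend were 0.48, 1.08 and 0.00, against 0.32 and not 0 over all unigenes. In these medians 5 phototropins and 2 aureochromes without a dark read and 1 phototropin without a BL read were set to the limit of 3 reads. The difference between these classes was not tested. In Arabidopsis, active cryptochromes act on the COP1 and COP9 machinery of protein turnover. Of 4 COP9 signalosome unigenes 1 was upregulated and 0 downregulated, beside 25.0% and 11.6% of all unigenes and 44.7% and 2.55% in the GC range of the members. The median GC content of these 4 was 56.3%, and 4 unigenes are too few to set the count against either share. The call, named after its values were seen, was Unigene1697, read 440 times in darkness and 1361 times in BL, and its log2 ratio was 1.56 (interval 1.41 to 1.72). The lowest was Unigene16701, read 2702 and 2276 times, at a log2 ratio of -0.31 (interval -0.39 to -0.23).

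The part of the annotation at hand names 6 further unigenes as DNA repair or MutS proteins, of which 3 were upregulated and 0 downregulated. The shares called up and down were 25.0% and 11.6% over all unigenes, and 44.7% and 2.55% in the GC range of the members. The GC content of these 6 ran from 45.68% to 64.28% and so began below that range. With 6 unigenes the list is too small to set the count against either share. The highest was the DNA repair protein Unigene11442 at a log2 ratio of 2.85 (42 dark and 317 BL reads, interval 2.38 to 3.35). The lowest was Unigene12143, described as a DNA repair protein, at -0.64 (201 and 135 reads, interval -0.97 to -0.32).

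**Figure D5:**
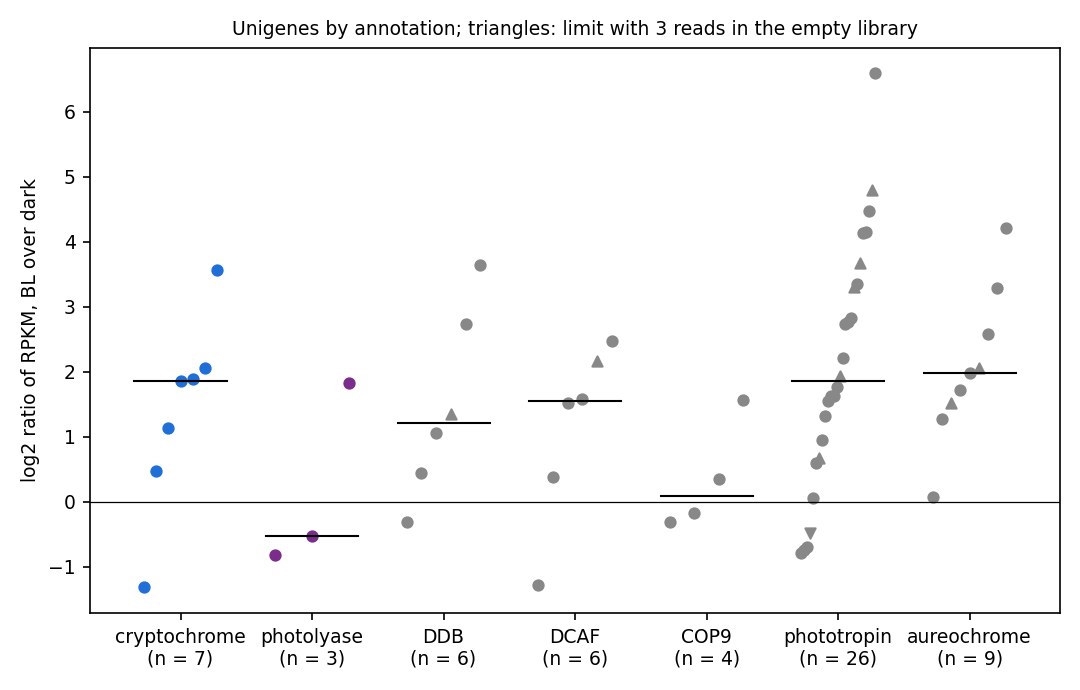
Log2 ratio of RPKM, BL over dark, of each unigene in 7 annotation classes, with the class median as a bar and triangles for unigenes without a read in 1 library, drawn at the limit for 3 reads there. With total reads the photolyase median of -0.54 is the only class median under 0, and that of the cryptochromes is 1.85. The COP9 median of 0.08 is smaller than the shift of 0.29 or 0.42 under TMM or median-of-ratios scaling, so either would place it under 0. Less the GC trend the COP9 median is -0.47 and the photolyase median -0.81, against 0.32 over all unigenes.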

How the data were processed

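Polyadenylated RNA of 1 pool of 10 sporophytes per treatment was sequenced. The authors assembled the cleaned reads into unigenes with SOAPdenovo and TGICL, and the program that aligned the reads back is not given in the sources used here. For each unigene the authors deposited counts of uniquely aligned reads, which are not normalized. The deposited percent values are the covered share of the unigene's length, the GC content and the share of unknown bases. Unigenes absent from a library were taken as 0 reads. No column was left unmapped. Unigene sequences and a genome were not used here.

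RPKM used all uniquely aligned reads of a library. The thresholds and RPKM were those of the paper, without its minimum of 500 bp, because 5 members are shorter. The test was the 2-sided Audic-Claverie test whose tails both include the observed count, with Benjamini-Hochberg adjustment over 70288 unigenes. It was checked on simulated Poisson counts only. These hold no spread between kelps or libraries, so the check does not show how the test performs where such spread exists. Pairs were compared by the conditional odds ratio with its exact 95% interval. Alternatives were TMM (edgeR 4.0.16, R 4.3.3), median-of-ratios factors, Fisher's exact test, a minimum of 10 reads, 500 bp, an absolute log2 ratio of 2, the exact test of edgeR at a biological coefficient of variation set to 0.2 or 0.4, a pseudocount of 1 RPKM and log2 ratios taken relative to their GC trend (line through the medians of 20 equal GC classes). The exchange of Unigene22061 and Unigene16063 was added after the data had been seen. Python 3.11.15 and scipy 1.17.1 were used.

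All 10 members are named, and of the other lists the highest and the lowest ratio among unigenes read 10 or more times in both libraries. The rule for members uses annotation names alone, but this family and the other lists were chosen with earlier results of these data known. No unigene was named for a likeness of pattern, since 2 libraries give 1 ratio per unigene.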

Additional observations from a re-analysis of the deposited data

How the results depend on the processing

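Against 4 cryptochromes and 1 photolyase called up and 0 called down, TMM factors and median-of-ratios factors each gave 2 cryptochromes (Unigene16798 and Unigene46375) and 0 photolyases up, with 1 cryptochrome (Unigene67190) and 1 photolyase (Unigene19885) down. A fold threshold of 2 on the log2 scale gave 2 and 0 up, an assumed coefficient of variation of 0.2 also 2 and 0, and 0.4 gave 0 and 0. A length of at least 500 bp left 3 cryptochromes (without Unigene43965) and 0 photolyases up. With the GC trend removed, 0 members were up and 2 cryptochromes and 1 photolyase down. Fisher's exact test and the minimum of 10 reads kept the main counts.

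Removal of the GC trend turned the log2 ratio of Unigene22061 to -0.51 and of Unigene7340 to -0.042, and the summed ratios of the DASH unigenes to -0.64, of the Chlamydomonas group to -0.46 and of all cryptochromes to -0.49. The potoroo photolyase sum turned from -0.32 to 1.82 without Unigene11093. The cause was not tested. Over all unigenes 25696 were called, 68.3% of them up. The share called up was 54.9% under TMM and 48.7% under median-of-ratios scaling. The number of calls was 16235 at an absolute log2 ratio of 2, 11686 at 500 bp, 12813 and 969 with a coefficient of variation of 0.2 and 0.4. No paired analysis was possible because each treatment has 1 library. Members with under 50 reads in all have intervals over 2 wide on the log2 scale.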
